A study of Mus musculus with 12 samples.

Results

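Gene expression was compared between the spleens of 4 mice fed HFD-ED and 4 mice fed HFD-CO, high fat diets of equal fat content that differed in 2% of their weight of oil. All 8 arrays labelled with these diets were taken, of 12 in the series, and every gene was read from 1 probe, that of highest average over the 12 arrays, which left 19057 genes. HFD-CO was 15% fat by weight, made of 5% corn oil and 10% coconut oil, with 1% cholesterol. HFD-ED held the same fat and cholesterol, with 3% corn oil, 10% coconut oil and 2% of an oil of eicosapentaenoic acid (EPA) and docosahexaenoic acid (DHA). The remaining 4 arrays, from mice fed a control diet with 5% fat (2.5% corn oil and 2.5% coconut oil) and no added cholesterol, were not compared here, and entered the estimate of the spread between mice and the means over 12 arrays. All mice were male C57BL/6J, arrived at 6 weeks of age, were acclimatized for 3 weeks and ate their diet for 8 weeks. The mice of each diet had been picked by the study from a larger group for their body weight and plasma lipids, so they were not a random draw. Values are on a log2 scale on which the dimmest probes lie near 7, and a mean over 12 mice at or under 7.5 is called near the floor below.

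The labels name spleen as the tissue, while the submitted protocol text names skeletal muscle. The skeletal muscle genes Acta1, Ckm and Myh4 had means of 7.10, 7.04 and 7.05, and 15 of 17 skeletal muscle genes measured were near the floor. The defining genes of red pulp macrophages, which recycle iron in the spleen, were far above it, with Slc40a1 at 12.9 to 13.5 and Spic at 10.4 to 11.4 over the 12 mice. The T cell gene Cd3e lay between 9.51 and 10.6 and the B cell gene Ms4a1 between 7.95 and 8.30. The probes for Cd4, Cd8a and Ncr1, which mark T cell subsets and natural killer cells, had means of 7.25, 7.08 and 7.08 and so gave little signal in any mouse.

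Single mice decided many of the results. HFD-ED 1 stood apart from the other HFD-ED mice. Among the 1655 genes with exactly 3 HFD-ED mice higher than all HFD-CO mice, HFD-ED 1 was the exception for 930 (56.2%), and among the 1573 genes with exactly 3 lower than all HFD-CO mice it was the exception for 691 (43.9%). Of the HFD-CO mice, HFD-CO 3 was most often the exception. It was so for 439 of 1068 genes (41.1%) with exactly 3 HFD-CO mice below all HFD-ED mice. With exactly 3 above them it was so for 477 of 1350 (35.3%). HFD-ED 3 was the most extreme HFD-ED mouse for the neutrophil, red cell membrane, B cell and T cell lists described below. Without HFD-ED 3 the medians of many lists below moved by over 1.5 times, and these values are given where the median of the list is stated. HFD-CO 4, and less so HFD-CO 1, carried digestive enzyme transcripts of the exocrine pancreas. The summary of 25 pancreatic acinar genes, as the mean deviation from the HFD-CO mean, was 3.27 in HFD-CO 4 and -0.03 in HFD-CO 1, against -1.63 to -1.62 in the other HFD-CO mice and -1.63 to -1.04 in the HFD-ED mice. Pairs of arrays within a diet correlated at 0.971 to 0.994 for HFD-ED and 0.979 to 0.993 for HFD-CO across genes, which are not independent replicates. Each array is 1 mouse, so the number of mice limits the precision. The 95% interval of a difference reached 0.19 to each side for the median gene with a mean above 7.5.

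EPA and DHA are long-chain n-3 fatty acids that enter cell membranes in place of arachidonic acid, the n-6 precursor of prostaglandins, thromboxanes and leukotrienes. Both bind nuclear receptors of the PPAR family and restrain the processing of SREBP transcription factors, which drive lipogenic and sterol genes. The mouse spleen filters blood through its red pulp, where macrophages remove aged red cells, holds lymphocytes in its white pulp, and also makes red cells, megakaryocytes and granulocytes throughout adult life. Gene lists for these functions are described by how many members differed, with their median.

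Of the 45281 probes, 1 passed an adjusted p of 0.05 in the limma fit between HFD-ED and HFD-CO (0.00221%), and 0 passed 0.001, the threshold of the study. Without adjustment 2085 probes were higher and 2126 lower at p under 0.05. Over genes these shares were 6.07% higher and 5.82% lower. The 4 HFD-ED mice all lay above the 4 HFD-CO mice for 368 genes (1.93%) and all below them for 497 genes (2.61%). Among the 7014 genes with a mean above 7.5 the shares without overlap were 2.65% higher and 4.15% lower. The median difference over all genes was -0.0026, with 47.0% of genes higher on HFD-ED. With HFD-ED 1 left out, 46 probes passed the adjusted threshold, 31 higher and 15 lower, whereas with any 1 other mouse left out 0 or 1 did. HFD-ED 1 was singled out by these same values. Passes without it, here and below, are therefore descriptions and add no support for a difference. All values below are log2 values or differences of log2 values, and SE is the standard error of a difference.

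**Figure D1:**
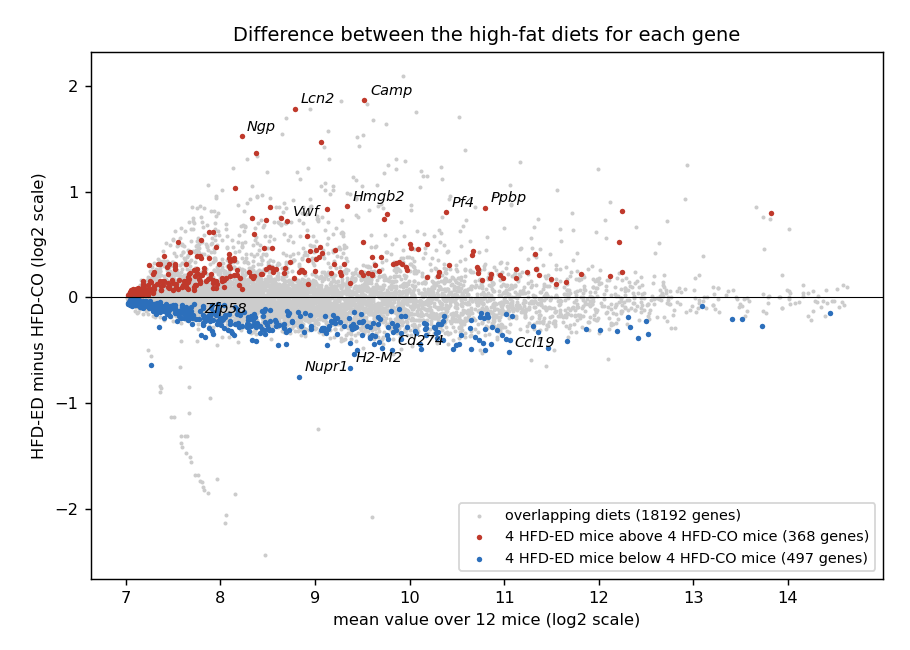
Difference between HFD-ED and HFD-CO (vertical axis, log2 scale) against the mean over 12 mice (horizontal axis, log2 scale) for 19057 genes, 1 point per gene. Red points are the 368 genes whose 4 HFD-ED mice lay above all 4 HFD-CO mice, blue points the 497 whose HFD-ED mice lay below, and the red points with a difference above 1.5 include the neutrophil granule genes Camp, Lcn2 and Ngp. Grey points far below 0 include the pancreatic acinar genes set by HFD-CO 4.

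Zfp58, which encodes a zinc finger protein of the kind that carries a KRAB repressor domain, was the gene that passed the test. Its values were 7.83, 7.82, 7.86 and 7.88 in HFD-CO mice 1 to 4 and 7.61, 7.68, 7.67 and 7.63 in HFD-ED mice 1 to 4. The groups did not overlap, and HFD-ED 1 lay with the other HFD-ED mice. Zfp58 fell by 0.20 on the log2 scale (SE 0.020, adjusted p = 0.0375), a ratio of 0.869. The call was lost when the 8 arrays were fitted alone (adjusted p = 0.242), when a trend of variance with intensity was allowed (adjusted p = 0.301), and when any mouse other than HFD-ED 1 was left out.

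Numbered zinc finger genes, many of which encode DNA-binding repressors, were examined together because Zfp58 belongs to them. Of the 304 measured, 206 were lower and 98 higher in HFD-ED mice, with a median of -0.02 beside -0.0026 over all genes. The diets did not overlap for 20 of them, 19 lower (6.25%, beside 2.61% of all genes) and 1 higher. Zfp747 had values of 7.83, 7.99, 8.06 and 8.20 in HFD-CO mice and 7.59, 7.62, 7.63 and 7.77 in HFD-ED mice (difference -0.37, SE 0.0717, adjusted p = 0.331). Zfp119a differed by -0.22 (SE 0.0394) and Zfp398 by -0.12 (SE 0.0217), both with adjusted p = 0.319. In HFD-ED 1, 87 of the 304 genes (28.6%) lay below every HFD-CO mouse, beside 19.7% of all genes. Most of these genes were expressed close to the floor, and 99 had a mean above 7.5.

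The bases upstream of the transcription start are shown for Zfp58, as the gene that passed the test, and for Pf4, Ppbp and Gp1bb, 3 platelet genes that were higher in all 4 HFD-ED mice, described below. Sequences are 250 bases ending at the base before the RefSeq start, from build GRCm38.p6, written 5′ to 3′ on the strand of the gene. Capitals mark matches on either strand to forms bound by GATA factors, which were AGATAA as well as AGATAG, then TGATAA as well as TGATAG, and to a form bound by ETS factors, which was GGAAGT. Both factor families act in megakaryocyte differentiation.
Zfp58 (chr13:67500523-67500772, minus strand): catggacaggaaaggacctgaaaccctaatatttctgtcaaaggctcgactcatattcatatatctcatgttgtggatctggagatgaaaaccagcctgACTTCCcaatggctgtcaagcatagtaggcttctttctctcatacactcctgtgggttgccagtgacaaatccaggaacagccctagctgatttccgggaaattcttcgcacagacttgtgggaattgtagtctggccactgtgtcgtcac
Pf4 (chr5:90772185-90772434, plus strand): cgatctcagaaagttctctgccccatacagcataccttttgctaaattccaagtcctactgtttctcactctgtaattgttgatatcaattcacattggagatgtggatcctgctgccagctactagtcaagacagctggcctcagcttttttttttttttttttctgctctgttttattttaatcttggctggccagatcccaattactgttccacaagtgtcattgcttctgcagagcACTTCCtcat
Ppbp (chr5:90768268-90768517, plus strand): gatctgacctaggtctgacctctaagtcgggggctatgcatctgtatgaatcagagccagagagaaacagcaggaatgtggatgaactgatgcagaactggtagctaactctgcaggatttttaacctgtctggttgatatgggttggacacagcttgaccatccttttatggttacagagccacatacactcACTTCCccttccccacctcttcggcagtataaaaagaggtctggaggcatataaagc
Gp1bb (chr16:18622404-18622653, minus strand): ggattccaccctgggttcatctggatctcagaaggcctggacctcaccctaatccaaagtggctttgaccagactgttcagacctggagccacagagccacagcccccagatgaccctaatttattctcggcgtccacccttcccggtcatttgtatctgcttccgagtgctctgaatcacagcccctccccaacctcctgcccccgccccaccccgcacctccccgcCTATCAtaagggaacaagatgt
Each sequence held 1 match, so no matches overlapped. The match in Gp1bb was of the GATA form and began 22 bases before the start, and the matches in Pf4, Ppbp and Zfp58 were of the ETS form and began 10, 57 and 151 bases before it, all read on the opposite strand. Over 15237 measured genes with a promoter in the same table, 23.1% held a GATA form and 20.8% the ETS form in this window. Of 22 genes of the megakaryocyte and platelet list in the table, 8 held a GATA form and 8 the ETS form (36.4% each). A match is a description of the letters and does not show a binding site. Pf4 and Ppbp are neighbours on chromosome 5, where both belong to a cluster of CXC chemokine genes.

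Platelet genes were higher in HFD-ED fed mice. Megakaryocytes are the large polyploid cells that release platelets, and platelet proteins include granule chemokines, adhesion receptors and the arachidonate 12-lipoxygenase. Of 26 genes measured, 21 had higher and 5 lower means in HFD-ED fed mice, with a median of 0.22. For 12 of them (46.2%) the 4 HFD-ED mice exceeded the 4 HFD-CO mice, beside 1.93% of all genes, and for 0 below. The list's mean deviation was -0.04 to 0.05 in the HFD-CO mice and 0.16, 0.30, 0.60 and 0.32 in HFD-ED mice 1 to 4. HFD-ED 1 was the lowest HFD-ED mouse and still lay above every HFD-CO mouse. Without HFD-ED 3 the median was 0.10. None of the 26 genes passed an adjusted p of 0.05 in limma. At an unadjusted p under 0.05 15 were higher (57.7%, beside 6.07% of all genes).

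The granule chemokines of the list were higher in all 4 HFD-ED mice. Pf4, platelet factor 4, was 10.003, 10.07, 10.15 and 9.98 in HFD-CO mice and 10.41, 11.10, 11.03 and 10.89 in HFD-ED mice. Ppbp, pro-platelet basic protein, was 10.34, 10.31, 10.66 and 10.38 in HFD-CO mice and 10.86, 11.38, 11.59 and 11.25 in HFD-ED mice. The groups did not overlap for either gene, and HFD-ED 1 was nearest to the HFD-CO mice for both. The difference was 0.81 (SE 0.129) for Pf4 and 0.85 (SE 0.148) for Ppbp, ratios of 1.75 and 1.80, with adjusted p of 0.293 and 0.319. Without HFD-ED 1 both passed in limma, Pf4 at 0.96 (adjusted p = 0.00416) and Ppbp at 0.99 (adjusted p = 0.0292). That mouse was set aside on these same values, so the passes are a description only.

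Adhesion and receptor genes were ordered in the same way. Vwf, von Willebrand factor, which tethers platelets to damaged vessels, was 8.15, 8.47, 8.38 and 8.38 in HFD-CO mice and 8.76, 9.14, 9.27 and 9.08 in HFD-ED mice (difference 0.72, SE 0.103, adjusted p = 0.236). Gp1bb, a subunit of the receptor that binds it, was 7.67, 7.47, 7.60 and 7.60 against 7.84, 8.20, 8.31 and 8.17 (difference 0.54, SE 0.0881, adjusted p = 0.308). The other subunits of that receptor complex, Gp5 and Gp9, named here after their values were seen, differed by 0.75 and 0.60 and were also without overlap. Itga2b, the platelet integrin alpha chain, was 7.47, 7.46, 7.65 and 7.93 in HFD-CO mice and 7.95, 8.11, 8.58 and 8.35 in HFD-ED mice, with HFD-CO 4 just under HFD-ED 1. Treml1, a receptor stored in platelet granules, differed by 0.85 (SE 0.180), and F2rl2, a thrombin receptor, by 0.22 (SE 0.0834). Vwf, Gp1bb and Treml1 passed the adjusted threshold without HFD-ED 1, at 0.0123, 0.00718 and 0.0415.

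Alox12, which turns arachidonic acid into 12-HETE in platelets, joins the platelet list with the eicosanoid enzymes. It was 9.38, 9.41, 9.49 and 9.51 in HFD-CO mice and 9.97, 10.09, 10.75 and 10.13 in HFD-ED mice. All HFD-ED mice were above all HFD-CO mice by a gap wider than the spread of the HFD-CO mice, and HFD-ED 3 was the highest. The difference was 0.79 (SE 0.137, adjusted p = 0.319), and it passed without HFD-ED 3 at 0.62 (adjusted p = 0.0432).

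Neutrophil granule genes had the largest differences without overlap. Developing granulocytes load primary granules first (myeloperoxidase and the serine proteases), then secondary and tertiary granules, whose genes are expressed by later precursors. Of 20 genes of secondary granules and mature neutrophils, 19 were higher on HFD-ED with a median of 0.51, and 9 (45%, beside 1.93% of all genes) were higher without overlap. Of 6 primary granule genes all 6 were higher, with a median of 0.78, and 0 were without overlap. Without HFD-ED 3 these medians were 0.24 and 0.39. No gene of these lists passed an adjusted p of 0.05 in limma. At an unadjusted p under 0.05 12 and 3 genes were higher (60% and 50%, beside 6.07% of all genes).

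Camp, the cathelicidin antimicrobial peptide, was 9.02, 8.30, 8.68 and 8.53 in HFD-CO mice and 9.11, 10.88, 11.71 and 10.28 in HFD-ED mice. Lcn2, lipocalin 2, which binds bacterial siderophores, was 8.43, 7.81, 8.04 and 7.89 against 8.74, 9.68, 11.59 and 9.28. Ngp, neutrophilic granule protein, was 7.73, 7.496, 7.65 and 7.499 against 7.97, 9.17, 10.75 and 8.58. In each gene HFD-ED 3 was highest, HFD-ED 1 was the lowest HFD-ED mouse, and the HFD-CO mouse next to it was HFD-CO 1. The differences were 1.87 (SE 0.516), 1.78 (SE 0.514) and 1.52 (SE 0.476), ratios of 3.64, 3.44 and 2.87, with adjusted p of 0.399, 0.424 and 0.446. Chil3, a chitinase-like protein, and its paralogue Chil4 differed by 1.47 (SE 0.393) and 1.37 (SE 0.424), and these genes are so alike that their probes may share signal. Retnlg, a resistin-like protein, differed by 1.04 with a 95% interval of -0.09 to 2.16, and was without overlap although its HFD-ED mice ran from 7.88 to 10.71.

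Primary granule genes overlapped through HFD-ED 1. Mpo, myeloperoxidase, was 9.17, 7.90, 8.96 and 8.62 in HFD-CO mice and 8.96, 10.29, 12.25 and 10.44 in HFD-ED mice (difference 1.82, SE 0.609). Elane, neutrophil elastase, differed by 0.85 (SE 0.335) and Prtn3, proteinase 3, by 1.06 (SE 0.414), each with HFD-ED 1 inside the HFD-CO range. Ltf, lactoferrin, differed by 2.09 (SE 0.604), with 9.58 in HFD-ED 1 and 9.67 in HFD-CO 1. S100a9, a calcium-binding protein of mature neutrophils, was 11.17 to 11.77 in HFD-CO mice and 11.75 to 13.30 in HFD-ED mice (difference 1.22, SE 0.329). Hdc, the histidine decarboxylase that makes histamine, differed by 0.75 (SE 0.284) without overlap, and its value of 9.90 in HFD-ED 3 stood above 8.37 to 8.47 in the other HFD-ED mice.

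**Figure D2:**
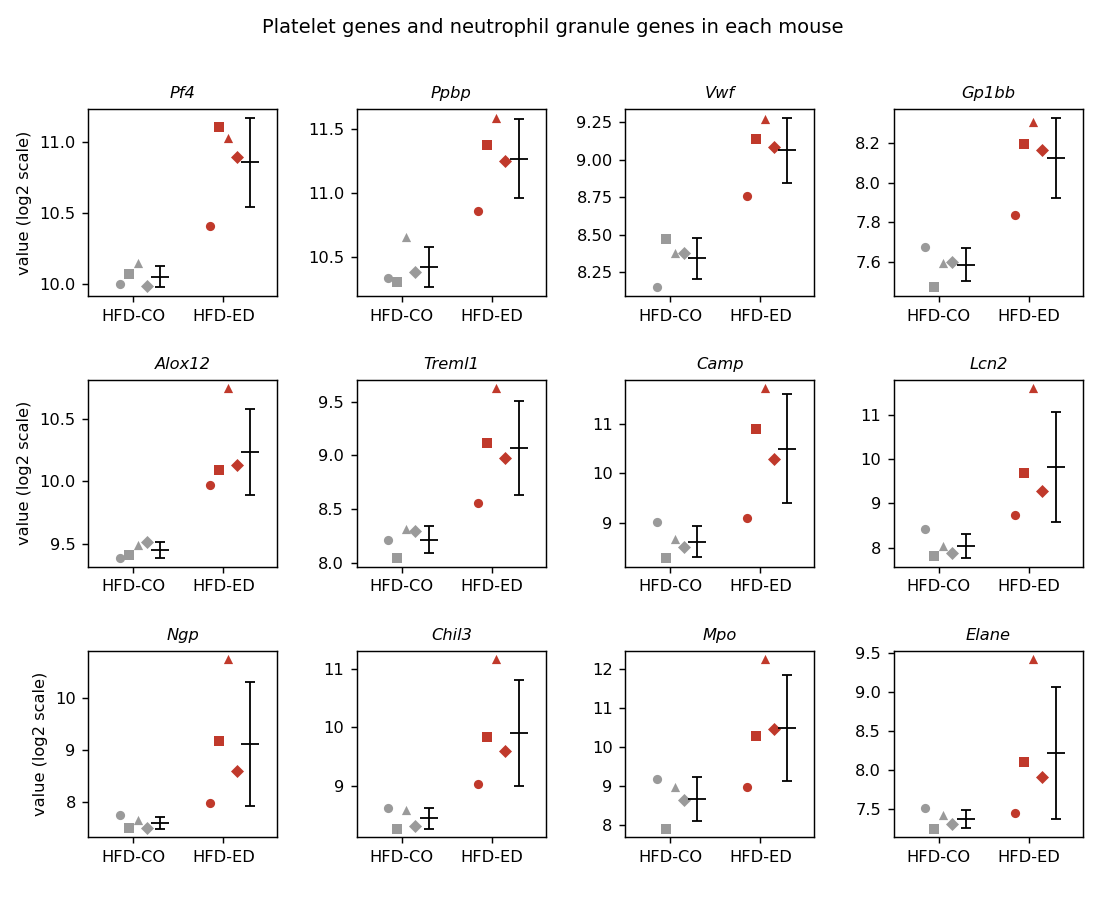
Values on the log2 scale (vertical axes) of 6 platelet genes and 6 neutrophil genes in 4 HFD-CO mice (grey) and 4 HFD-ED mice (red). Circle, square, triangle and diamond are mice 1 to 4 of each diet, and the black marks are the mean ± SD. HFD-ED 1 (red circle) is the HFD-ED mouse closest to HFD-CO in all panels, and Mpo and Elane overlap between diets through it.

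Red cell genes were higher in 3 of the 4 HFD-ED mice. Erythroid precursors take up iron through the transferrin receptor, build haem in the mitochondria and assemble a membrane skeleton before they lose their nucleus. The mean deviation of 19 red cell membrane and carbonic anhydrase genes was 1.09, 1.69 and 1.04 in HFD-ED mice 2 to 4 but -0.18 in HFD-ED 1, beside 0.00, -0.35, 0.62 and -0.27 in HFD-CO mice 1 to 4. For 18 genes of haem synthesis and iron uptake the values were 0.88, 1.30 and 0.77 in HFD-ED mice 2 to 4, -0.19 in HFD-ED 1 and -0.31 to 0.48 in HFD-CO mice. Over 76 genes of the 5 red cell lists, HFD-ED mice 2 to 4 exceeded all HFD-CO mice for 48, and in 1 of those 48 did HFD-ED 1 as well. Over all 19057 genes they did so for 1298, and in 368 of those did HFD-ED 1 as well. HFD-ED 1 was below the HFD-CO mean in 63 of the 76, while over all genes its median difference from that mean was -0.0021.

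The medians of these lists over all 4 HFD-ED mice were 0.71 for the membrane genes, 0.66 for haem and iron, 0.25 for reticulocyte maturation, 0.23 for transcription factors and the Epo receptor and 0.03 for the 7 globin and globin chaperone genes. Without HFD-ED 3 they were 0.48, 0.46, 0.16, 0.14 and 0.04. Of the 7 globin and globin chaperone genes 2 had a mean above 7.5, so their median came mostly from genes near the floor. Differences within that list ran from -0.04 to 0.57. Tfrc, the transferrin receptor, was 10.04, 9.13, 11.07 and 9.35 in HFD-CO mice and 9.88, 11.93, 12.78 and 11.81 in HFD-ED mice (difference 1.70, SE 0.660, adjusted p = 0.490). Nfe2, a factor of erythroid and megakaryocytic cells, differed by 1.52 (SE 0.571), and Ermap, a red cell surface protein, by 1.22 (SE 0.448). Abcb10 and Tmem14c, of mitochondrial haem synthesis, differed by 0.71 (SE 0.250) and 0.64 (SE 0.208), and Nt5c3, which clears pyrimidine nucleotides from reticulocytes, by 1.15 (SE 0.455). Gata1, the factor that directs both lineages, was near the floor, at 7.12 to 7.24 in HFD-CO mice and 7.18, 7.34, 7.68 and 7.48 in HFD-ED mice. In each of these genes HFD-ED 1 lay inside the HFD-CO range. Alas2, the first enzyme of erythroid haem synthesis, was 11.16 to 12.59 in HFD-CO mice and 11.43 to 12.91 in HFD-ED mice.

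Proliferation genes were higher in the same 3 HFD-ED mice. Of 41 DNA replication genes all 41 were higher on HFD-ED with a median of 0.30, and of 68 mitosis genes 64 were higher with a median of 0.42. At an unadjusted p under 0.05 these were 22 and 46 (53.7% and 67.6%, beside 6.07% of all genes). Without overlap 4 of each list were higher (9.76% and 5.88%, beside 1.93% of all genes). Lower without overlap was 1 mitosis gene, Ccnb2, near the floor and named after its values were seen (1.47%, beside 2.61%). The replication list averaged 0.03 in HFD-ED 1 and 0.35, 0.73 and 0.41 in HFD-ED mice 2 to 4, and the mitosis list 0.05 against 0.44, 0.75 and 0.46. HFD-CO 3, the HFD-CO mouse with the highest red cell values, was at 0.19 and 0.23. Without HFD-ED 3 the median of the replication list was 0.19. In a whole organ, more cells of a type and more RNA per cell cannot be told apart.

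A few proliferation genes were higher in HFD-ED 1 too, but as a smaller share than among all genes. HFD-ED 1 lay above every HFD-CO mouse for 4 of 41 replication genes (9.76%) and 4 of 68 mitosis genes (5.88%). This held for 18.9% of all genes. Hjurp, the chaperone that loads the centromeric histone, was 9.81, 9.61, 9.91 and 9.88 in HFD-CO mice and 10.23, 10.41, 10.22 and 10.22 in HFD-ED mice (difference 0.47, SE 0.0781, adjusted p = 0.310). The replication-dependent histone H3 genes H3c13 and H3c1 differed by 0.40 (SE 0.0696) and 0.39 (SE 0.0705), both with adjusted p = 0.319 and without overlap. H3c13 was 10.35 to 10.54 in HFD-CO mice and 10.80 in HFD-ED 1. Histone genes of this class are close in sequence, so their probes may share signal. Pola2, a subunit of DNA polymerase alpha, and Cdc45, of the replicative helicase, differed by 0.30 (SE 0.0727) and 0.42 (SE 0.112). Mcm6, of the same helicase, differed by 0.62 (SE 0.163) with 10.15 in HFD-ED 1 and 10.19 in HFD-CO 3. Hmgb2, a chromatin protein of dividing cells, was 8.71 to 9.52 in HFD-CO mice and 9.67, 9.62, 10.82 and 9.66 in HFD-ED mice. Ndc80 of the kinetochore and Ncapg2 of condensin differed by 0.27 (SE 0.0727) and 0.26 (SE 0.0674), and Stmn1, a microtubule regulator, by 0.38 (SE 0.0980). Ndc80 was without overlap, whereas the diets overlapped for Ncapg2 and Stmn1.

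Respiratory and proteasome genes showed small differences. Of 74 respiratory chain genes 63 were higher on HFD-ED, with a median of 0.07 (0.05 without HFD-CO 4) and 2 without overlap (2.70%, beside 1.93% of all genes), Ndufv2 of complex I (0.27, SE 0.0900) and Uqcrc1 of complex III (0.28, SE 0.0950). Ndufa12 differed by 0.33 (SE 0.0886) with a slight overlap. Of 39 proteasome genes 3 were higher without overlap (7.69%), Psmd1, Psma7 and Psmd11, at 0.21 (SE 0.0397), 0.18 (SE 0.0607) and 0.20 (SE 0.0650). Psmd1 was 11.22 to 11.35 in HFD-CO mice and 11.43, 11.47, 11.61 and 11.48 in HFD-ED mice. Mrpl37, of the mitochondrial ribosome, was 9.39, 9.42, 9.51 and 9.51 against 9.66, 9.69, 9.69 and 9.70 (difference 0.23, SE 0.0385, adjusted p = 0.319). Sars, a seryl-tRNA synthetase, differed by 0.22 (SE 0.0422). The 58 ribosomal protein genes had a median difference of 0.0033 (-0.00046 without HFD-ED 3) and 0 without overlap.

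**Figure D3:**
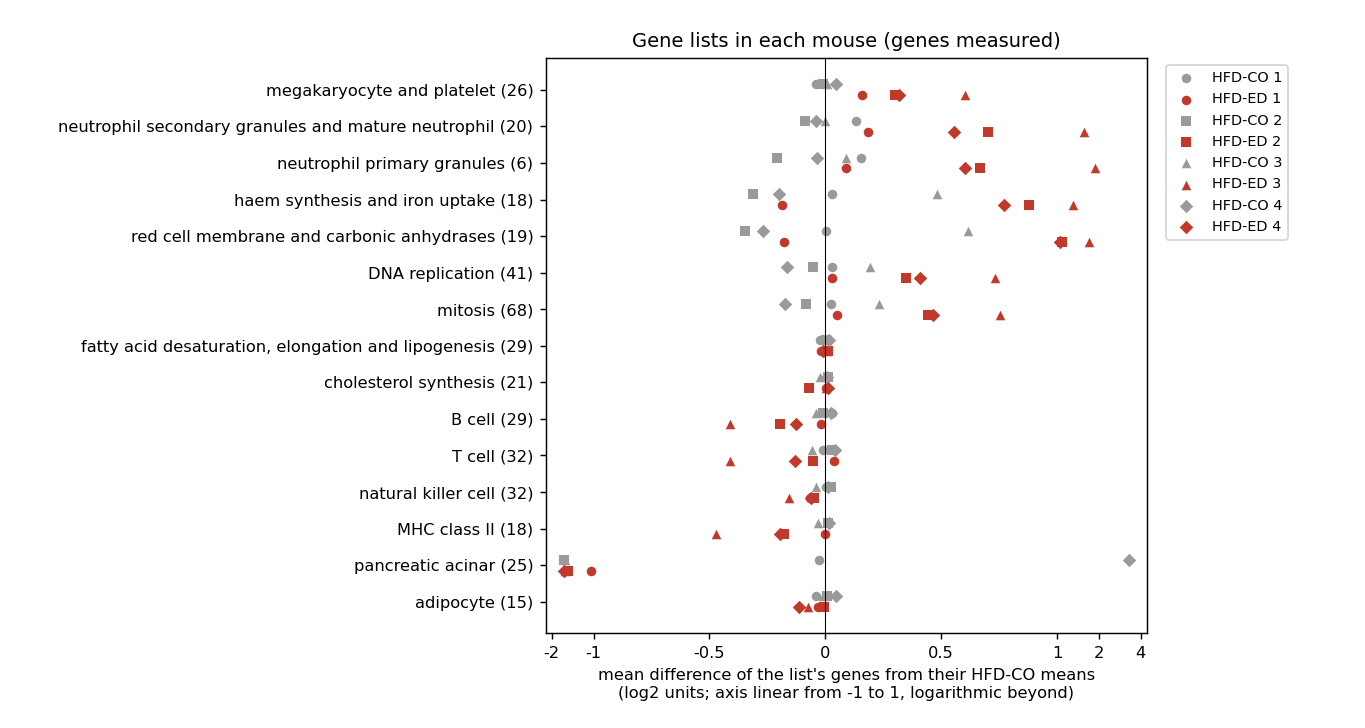
Mean difference of the genes of 15 lists from their HFD-CO means (horizontal axis, log2 units, linear from -1 to 1 and logarithmic beyond) in each of 4 HFD-CO mice (grey) and 4 HFD-ED mice (red), with the number of genes measured in parentheses. The platelet list separates the diets, from 0.16 to 0.60 on HFD-ED against at most 0.05 on HFD-CO, the red cell, replication and mitosis lists separate HFD-ED mice 2 to 4 from the rest, and the pancreatic acinar list sets HFD-CO 4 apart.

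Genes of fatty acid synthesis differed little as a group. The list of 29 genes for desaturation, elongation and lipogenesis had 14 higher and 15 lower on HFD-ED, and 0 genes without overlap. Its median was -0.00067 (-0.0021 without HFD-ED 3), beside -0.0026 over all genes. It averaged -0.02 to 0.02 in all 8 mice. Fads1, whose delta-5 desaturase forms both arachidonic acid and EPA, was 10.25, 10.18, 10.28 and 10.12 in HFD-CO mice and 10.22, 10.72, 10.91 and 10.71 in HFD-ED mice. HFD-ED mice 2 to 4 were above every HFD-CO mouse and HFD-ED 1 lay inside the HFD-CO range, the same order as in the red cell lists. The part of the red cell genes in this order was not tested. The difference was 0.43 (SE 0.118, adjusted p = 0.388), and without HFD-ED 1 it was 0.57 (adjusted p = 0.0167). Lpcat3, which inserts polyunsaturated chains into phospholipids, had the same order, at 8.58, 8.58, 8.93 and 8.48 against 8.59, 9.38, 9.62 and 9.30 (difference 0.58, SE 0.184), and passed without HFD-ED 1 (0.79, adjusted p = 0.0415). Its other probe with a mean above 7.5 differed by 0.25.

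The other genes of this group were close between diets. Fads2, the delta-6 desaturase, was near the floor and differed by 0.01 with a 95% interval of -0.05 to 0.07. Scd1, the stearoyl-CoA desaturase, was abundant, at 12.11 to 12.23 in HFD-CO mice and 12.32, 11.96, 11.76 and 12.04 in HFD-ED mice, a difference of -0.15 with an interval of -0.46 to 0.17. The interval ran from -0.49 to 0.13 for Elovl5 (difference -0.18), which elongates polyunsaturated fatty acids. Fasn, Srebf1, Elovl6 and Scd2 had means of 7.12 to 7.37 and differences of 0.03, 0.02, -0.01 and -0.11. These genes gave little signal in any mouse. Lpl, lipoprotein lipase, was 10.25 to 10.96 in HFD-CO mice and 9.82 to 10.46 in HFD-ED mice (difference -0.43, SE 0.185, adjusted p = 0.518).

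Sterol and PPAR target genes showed isolated differences. Of 21 cholesterol genes 7 were higher and 14 lower, with a median of -0.01. Sqle, squalene epoxidase, was the 1 without overlap (4.76%, beside 1.93% of all genes higher). It was 7.76 to 7.88 in HFD-CO mice and 7.94, 7.95, 8.11 and 8.04 in HFD-ED mice (difference 0.17, SE 0.0487, adjusted p = 0.433). Insig2, which retains the SREBP complex in the endoplasmic reticulum, differed by -0.18 (SE 0.0551), and Msmo1, a methylsterol oxidase, by -0.17 (SE 0.0826). Srebf2 differed by 0.02 with an interval of -0.12 to 0.17. Of 32 PPAR receptor and fatty acid oxidation genes, 0 were higher at an unadjusted p under 0.05 in limma, beside 6.07% of all genes. At that threshold 2 were lower (6.25%, beside 5.82% of all genes). Acot1, a PPAR-induced acyl-CoA thioesterase, was without overlap but by a narrow margin, with 8.52 to 8.67 in HFD-CO mice and 8.40, 8.52, 8.30 and 8.35 in HFD-ED mice (difference -0.18, SE 0.0524, adjusted p = 0.436). Slc25a20, the carnitine carrier, differed by -0.16 (SE 0.0673). Pparg, Ppard and Ppara differed by -0.02, 0.01 and 0.04, and Cpt1a and Pdk4, common markers of PPAR activation, by 0.0034 and -0.05. Pdk4 varied widely within diets, with an interval of -0.54 to 0.43.

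Receptors for fatty acids and the enzymes of eicosanoid synthesis were mixed. Of 22 receptor genes 9 were higher and 13 lower, with a median of -0.0088 (-0.0034 without HFD-ED 3), and 8 had a mean above 7.5. Without overlap 1 was higher (4.55%, beside 1.93% of all genes) and 1 lower (4.55%, beside 2.61%). This pair, named after its values were seen, was Gpr18 and Gpr84. Ffar4, a receptor for long-chain fatty acids including DHA, was 7.57 to 7.73 in HFD-CO mice and 7.46, 7.68, 7.32 and 7.38 in HFD-ED mice (difference -0.20, SE 0.0644). Ffar2, a short-chain fatty acid receptor of leukocytes, differed by -0.32 (SE 0.0932), and Ltb4r1, the high-affinity leukotriene B4 receptor, by 0.21 (SE 0.0645). The 40 genes of eicosanoid synthesis had 17 higher and 23 lower, with a median of -0.01 (1.6e-05 without HFD-ED 3). Without overlap 2 were higher (5%, beside 1.93% of all genes) and 2 lower (5%, beside 2.61%). Besides Alox12, higher, Cyp4f16, of a cytochrome P450 family that breaks down leukotrienes, was lower, at 8.40 to 8.51 in HFD-CO mice and 8.30, 8.33, 7.95 and 8.27 in HFD-ED mice (difference -0.24, SE 0.0861). The other pair without overlap, named after their values were seen, was Pla2g12a, a secreted phospholipase A2, which differed by 0.45, and Hpgds, the haematopoietic prostaglandin D synthase, which differed by -0.17. Ptgs2, Alox15 and Alox5, the cyclooxygenase and lipoxygenases of inflammatory cells, had means of 7.07, 7.07 and 7.17 and gave no level that could be compared. Ptges2, a prostaglandin E synthase, differed by 0.06 (SE 0.0171) and Ptgis, prostacyclin synthase, by -0.25 (SE 0.129). Cyp4f14 had a mean of 7.08. Ptgs1 was not analysed here.

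**Figure D4:**
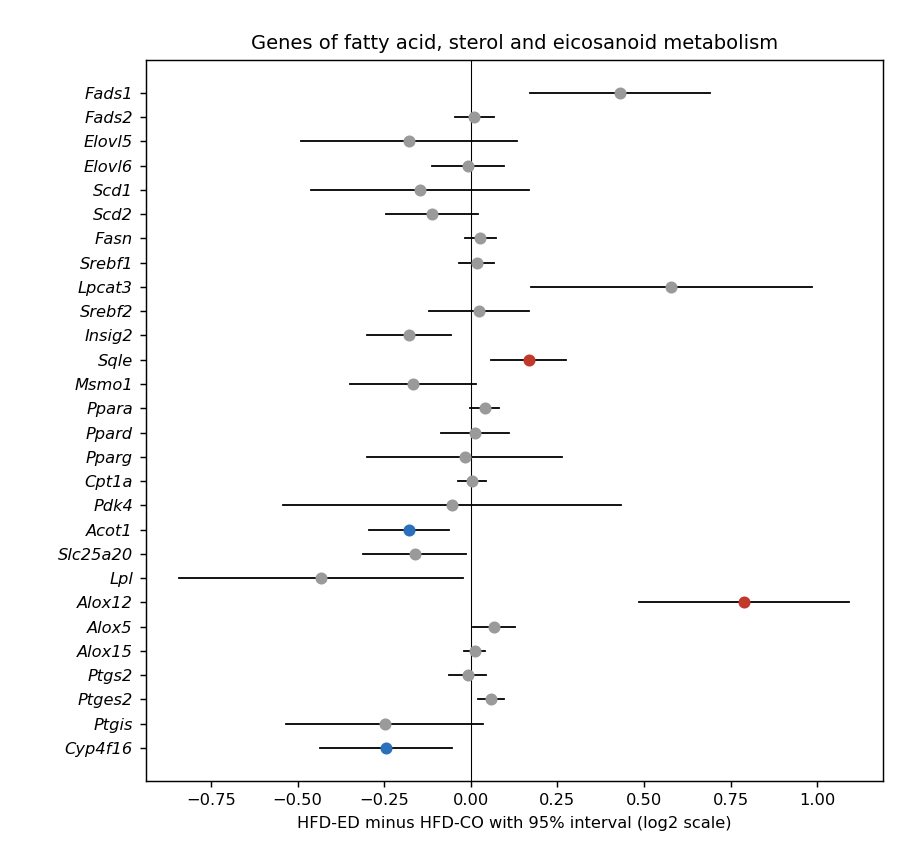
Difference between HFD-ED and HFD-CO (horizontal axis, log2 scale) with its 95% interval for 28 genes of fatty acid, sterol and eicosanoid metabolism. Red and blue points are genes whose diets did not overlap, higher (Alox12 and Sqle) and lower (Acot1 and Cyp4f16) on HFD-ED, and grey points are genes whose diets overlapped, among them Fads1 and Lpcat3, whose intervals lie above 0.

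Antioxidant genes protect polyunsaturated lipids from peroxidation, and several are abundant in red cells. Of 24 measured, 17 were higher with a median of 0.10 (0.07 without HFD-ED 3 and without HFD-CO 4), and 0 were without overlap. At an unadjusted p under 0.05 in limma 4 were higher (16.7%, beside 6.07% of all genes). The list averaged -0.08 in HFD-ED 1 and 0.33, 0.34 and 0.20 in HFD-ED mice 2 to 4. Gpx1, glutathione peroxidase 1, which red cells hold in quantity, was 13.32 to 14.04 in HFD-CO mice and 13.38, 14.41, 14.65 and 13.89 in HFD-ED mice. Prdx3 and Txnrd2, of the mitochondrial thioredoxin system, differed by 0.49 (SE 0.190) and 0.69 (SE 0.296), both with HFD-ED 1 inside the HFD-CO range. Hmox1, the inducible haem oxygenase of red pulp macrophages, varied from 8.47 to 10.09 within HFD-CO and from 8.83 to 10.45 within HFD-ED and did not separate the diets (difference 0.47, interval -0.49 to 1.43).

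Genes of antigen presentation were lower in HFD-ED mice 2 to 4. MHC class II molecules present peptides on B cells, dendritic cells and macrophages, with H2-DM as the peptide-loading chaperone and H2-O as its modulator. Of 18 genes measured 17 were lower on HFD-ED, with a median of -0.22. At an unadjusted p under 0.05 in limma 5 were lower (27.8%, beside 5.82% of all genes). Without overlap 3 were lower (16.7%, beside 2.61% of all genes). H2-DMa was 11.61, 11.58, 11.54 and 11.84 in HFD-CO mice and 11.41, 11.17, 10.88 and 11.19 in HFD-ED mice. H2-Eb1, one of the most abundant transcripts, was 13.38, 13.44, 13.54 and 13.57 against 13.36, 13.23, 13.21 and 13.32. The groups did not overlap, but the gap for H2-Eb1 between HFD-CO 1 and HFD-ED 1 was narrow. The difference was -0.48 (SE 0.107, adjusted p = 0.342) for H2-DMa, -0.21 (SE 0.0509, adjusted p = 0.345) for H2-Eb1 and -0.27 (SE 0.0860) for H2-Ab1. H2-Oa, H2-Ob and H2-DMb2 differed by -0.33, -0.31 and -0.39, and all 3 had HFD-ED 1 inside the HFD-CO range. The list averaged -0.0036 in HFD-ED 1, -0.47 in HFD-ED 3 and -0.18 and -0.20 in the other HFD-ED mice, beside -0.03 to 0.01 in HFD-CO mice. Without HFD-ED 3 its median was -0.13.

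Class I genes had a lower median too. Of 28 genes of class I loading and the immunoproteasome, 20 were lower with a median of -0.14 (-0.07 without HFD-ED 3). At an unadjusted p under 0.05 in limma 8 were lower (28.6%, beside 5.82% of all genes). Psmb8, an immunoproteasome subunit, was 11.61 to 11.89 in HFD-CO mice and 11.62, 11.46, 10.70 and 11.36 in HFD-ED mice (difference -0.49, SE 0.169). Tapbpl, a loading chaperone, was lower without overlap at -0.28 (SE 0.0887). H2-M2, a class Ib gene, was 9.46, 9.52, 9.61 and 9.83 in HFD-CO mice and 9.23, 9.02, 8.54 and 8.99 in HFD-ED mice, among the largest lower differences without overlap (-0.66, SE 0.128, adjusted p = 0.330). Clec9a, the dead-cell receptor of cross-presenting dendritic cells, was 8.83, 8.83, 8.61 and 8.68 against 8.25, 8.26, 8.30 and 8.35. Here HFD-ED 1 was the lowest mouse, and the gap between diets was wider than the spread within either (difference -0.45, SE 0.0786, adjusted p = 0.319). Xcr1, a chemokine receptor of the same cells, was near the floor and differed by -0.08 (SE 0.0310). Of 19 dendritic cell genes 14 were lower and 5 higher, with a median of -0.03, and 9 had a mean above 7.5. Clec9a was the 1 without overlap (5.26%, beside 2.61% of all genes).

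B cell genes were lower in HFD-ED mice 2 to 4, and T cell genes chiefly in HFD-ED 3. Of 29 B cell genes 27 were lower with a median of -0.19, and of 32 T cell genes 26 were lower with a median of -0.10. At an unadjusted p under 0.05 these were 12 and 8 (41.4% and 25%, beside 5.82% of all genes). Without overlap 4 of each were lower (13.8% and 12.5%, beside 2.61% of all genes). The B cell list averaged -0.02 in HFD-ED 1 and -0.19, -0.41 and -0.13 in HFD-ED mice 2 to 4, beside -0.04 to 0.03 in HFD-CO mice. The T cell list averaged 0.04 in HFD-ED 1 and -0.05, -0.41 and -0.13 in HFD-ED mice 2 to 4, beside -0.06 to 0.04 in HFD-CO mice, so HFD-ED 1 and 2 lay inside the HFD-CO range. The T cell median was -0.03 without HFD-ED 3, -0.06 without HFD-CO 2 and -0.15 without HFD-ED 1. HFD-ED 3 had the lowest values of these lists and the highest of the red cell membrane and neutrophil lists, and HFD-ED 1 lay within the HFD-CO range for the B cell and red cell membrane lists. The values are relative within an array, and the part of a larger share of red cell and granulocyte RNA in the lower lymphocyte values was not tested.

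Some members separated all 4 mice of each diet. Cd40, the co-stimulatory receptor of B cells, was 10.52, 10.32, 10.49 and 10.45 in HFD-CO mice and 10.11, 10.08, 9.76 and 10.22 in HFD-ED mice (difference -0.40, SE 0.0813, adjusted p = 0.337). Fcer2a, the low-affinity IgE receptor of follicular B cells, differed by -0.48 (SE 0.108), with 9.77 to 10.20 in HFD-CO mice and 9.26 to 9.71 in HFD-ED mice. Cd3g, of the T cell receptor complex, was 10.60 to 10.78 against 10.49, 10.42, 9.87 and 10.28 (difference -0.44, SE 0.134). Rasgrp1, which links the receptor to Ras, and Prkcq, the protein kinase C of the immune synapse, differed by -0.40 (SE 0.0986) and -0.13 (SE 0.0242). Prkcq was 7.81 to 7.83 in HFD-CO mice and 7.70, 7.64, 7.69 and 7.77 in HFD-ED mice, a small difference with little spread. Slamf7, of plasma cells and natural killer cells, was 8.39 to 8.59 against 8.29, 8.12, 7.86 and 8.06 (difference -0.40, SE 0.0760), and passed without HFD-ED 1 (-0.47, adjusted p = 0.0376). The other Slamf7 probe above 7.5 differed by -0.08, and the other probes of Cd40, Fcer2a and Rasgrp1 by -0.31 to -0.10, -0.25 to -0.19 and -0.18.

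Receptors of natural killer cells were lower by small amounts in all 4 HFD-ED mice. Of 32 genes 24 were lower with a median of -0.05, and 4 were lower without overlap (12.5%, beside 2.61% of all genes). Klra3, an inhibitory Ly49 receptor, was 7.99, 8.06, 7.93 and 8.08 in HFD-CO mice and 7.73, 7.86, 7.76 and 7.80 in HFD-ED mice (difference -0.23, SE 0.0398, adjusted p = 0.319). Klre1, a lectin-like receptor, and Cd160, an activating receptor, differed by -0.13 (SE 0.0339) and -0.24 (SE 0.0520). HFD-ED 1 was the lowest HFD-ED mouse for Klra3 and Klre1. Ly49 genes are near-identical paralogues, so the Klra3 probe may read more than 1 of them. Ncr1, the defining gene of these cells, was at the floor, and 12 of the 32 genes had a mean above 7.5.

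**Figure D5:**
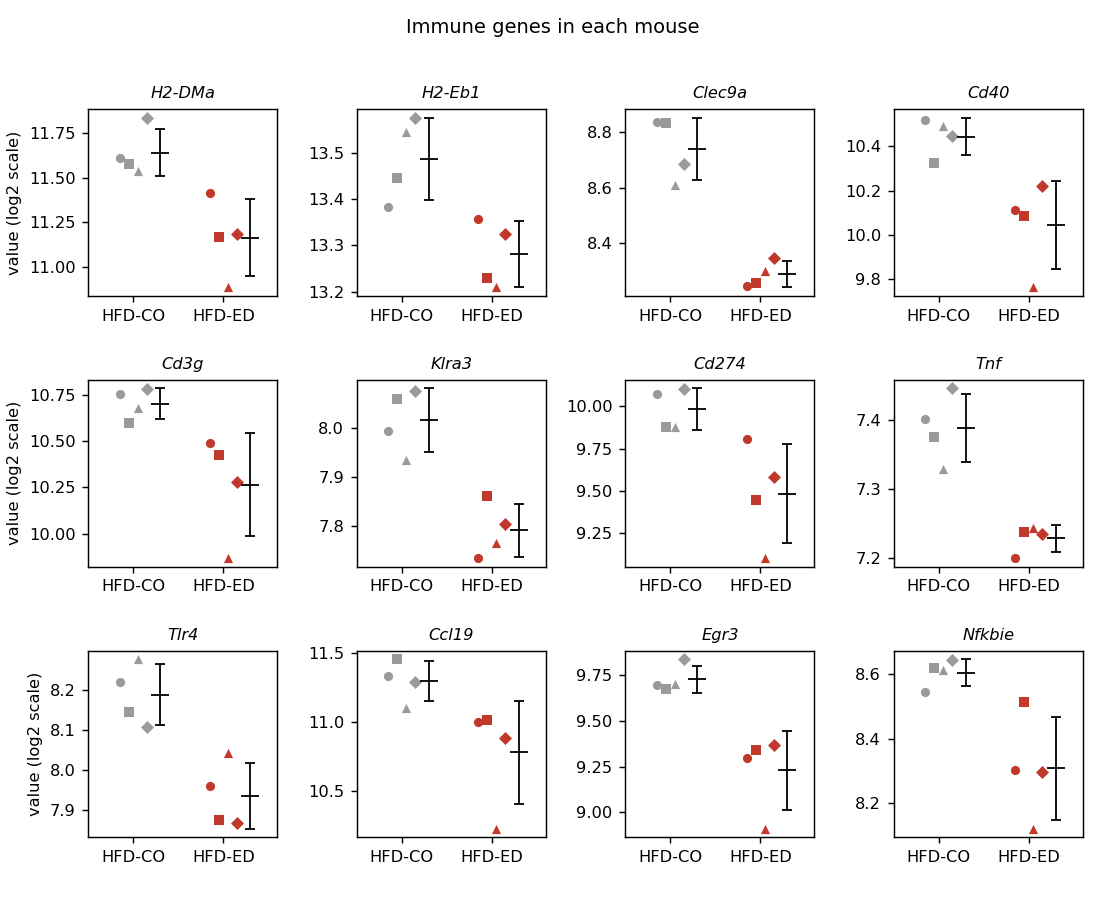
Values on the log2 scale (vertical axes) of 12 immune genes in 4 HFD-CO mice (grey) and 4 HFD-ED mice (red). Circle, square, triangle and diamond are mice 1 to 4 of each diet, and black marks are the mean ± SD. The diets do not overlap in any panel, and HFD-ED 1 (red circle) is the HFD-ED mouse nearest to HFD-CO for H2-DMa, H2-Eb1, Cd3g and Cd274 but the farthest for Clec9a, Klra3 and Tnf.

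Several genes of Toll-like receptor signaling, among them Tlr4, were lower in all 4 HFD-ED mice than in every HFD-CO mouse. Toll-like receptors recognise microbial products and signal through adaptors to NF-kB, and saturated fatty acids are among the proposed activators of Tlr4, the receptor for lipopolysaccharide. Of 28 genes 22 were lower with a median of -0.10. At an unadjusted p under 0.05 in limma 11 were lower (39.3%, beside 5.82% of all genes). Without overlap 5 were lower (17.9%, beside 2.61% of all genes). Tlr4 was 8.22, 8.15, 8.28 and 8.11 in HFD-CO mice and 7.96, 7.87, 8.04 and 7.87 in HFD-ED mice. Cd180, a Toll-like receptor homologue of B cells, was 8.47, 8.41, 8.20 and 8.48 against 8.12, 8.11, 8.14 and 8.06. The diets were separate for both, though HFD-CO 3 lay close to the HFD-ED mice for Cd180. The difference was -0.25 (SE 0.0504) for Tlr4 and -0.28 (SE 0.0598) for Cd180, both with adjusted p = 0.337. The other probes above 7.5 differed by -0.08 for Tlr4 and by -0.0082 for Cd180. Sigirr, an inhibitory receptor of the family, differed by -0.10 (SE 0.0300), also without overlap. Tlr11 was near the floor and differed by -0.12 (SE 0.0501). The list averaged -0.02 in HFD-ED 1, inside the HFD-CO range of -0.02 to 0.04, and -0.09, -0.15 and -0.12 in HFD-ED mice 2 to 4. Without HFD-ED 3 its median was -0.06.

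NF-kB and TNF family genes had small lower values. NF-kB subunits are held in the cytoplasm by inhibitors that are themselves its targets. Of 30 NF-kB genes 26 were lower with a median of -0.14 and 4 without overlap (13.3%, beside 2.61% of all genes), and of 18 genes of the TNF family 15 were lower with a median of -0.10 and 5 without overlap (27.8%). Tnf was 7.40, 7.38, 7.33 and 7.45 in HFD-CO mice and 7.20, 7.24, 7.24 and 7.24 in HFD-ED mice, a clear separation at a level near the floor (difference -0.16, SE 0.0290, adjusted p = 0.319). Ltb, lymphotoxin beta, which maintains splenic white pulp, was 10.39, 10.36, 10.25 and 10.24 against 10.02, 9.996, 10.02 and 9.99. HFD-ED mice differed among themselves by less than HFD-CO mice, and HFD-ED 1 was with them (difference -0.30, SE 0.0647, adjusted p = 0.337). Nfkbie, an inhibitor of NF-kB, differed by -0.30 (SE 0.0899), Nfkb2 by -0.18 (SE 0.0737) and Rel by -0.07 (SE 0.0196). Cflar, which blocks caspase 8, and Tnfrsf11a, the receptor RANK, differed by -0.21 (SE 0.0522) and -0.11 (SE 0.0342), both without overlap. The list means of HFD-ED 1, at -0.01 for both lists, lay inside the HFD-CO ranges. Without HFD-ED 3 the medians were -0.07 for the NF-kB list and -0.04 for the TNF family list, which was at -0.06 without HFD-ED 4.

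Of the cytosolic sensors, Casp1, the inflammasome caspase, was 11.47 to 11.73 in HFD-CO mice and 11.49, 11.26, 11.18 and 11.23 in HFD-ED mice (difference -0.27, SE 0.0689). Nod1 and Nlrc4 differed by -0.21 (SE 0.0727) and -0.15 (SE 0.0807). The NOD-like list of 18 had 15 lower and a median of -0.07 (-0.11 without HFD-CO 3). Among kinases, Prkcd and Prkcb differed by -0.27 (SE 0.0865) and -0.19 (SE 0.0944), and Ptk2b by -0.09 (SE 0.103), each with HFD-ED 1 apart from the other HFD-ED mice. HFD-ED 1 held the highest value of all 8 mice for Ptk2b, 8.38. Grem1, a BMP antagonist, was near the floor and differed by -0.09 (SE 0.0395), and Ecm1, extracellular matrix protein 1, by 0.08 (SE 0.0964).

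Chemokine and chemokine receptor genes were lower in HFD-ED mice 2 to 4. Ccl19, which draws T cells and dendritic cells into T cell zones, was 11.34, 11.46, 11.10 and 11.29 in HFD-CO mice and 10.999, 11.01, 10.23 and 10.89 in HFD-ED mice. The diets did not overlap, with HFD-ED 3 lowest (difference -0.52, SE 0.167, adjusted p = 0.454). Xcl1, the ligand of Xcr1, and Ccl5, a chemokine of activated T cells, differed by -0.22 (SE 0.0653) and -0.27 (SE 0.145), both with overlap. Of 37 genes 27 were lower, with a median of -0.07, and without overlap 6 were lower (16.2%, beside 2.61% of all genes) and 1 higher (2.70%, beside 1.93%). The list averaged -0.0053 in HFD-ED 1, inside the HFD-CO range of -0.03 to 0.04, and -0.10, -0.30 and -0.12 in HFD-ED mice 2 to 4. Its median was -0.03 without HFD-ED 3 and -0.04 without HFD-CO 4. In HFD-ED 1, 14 of the 37 (37.8%) lay below every HFD-CO mouse, beside 19.7% of all genes.

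Interferon genes were lower in part. Of 24 interferon-gamma response genes 21 were lower with a median of -0.08 and 3 without overlap (12.5%, beside 2.61% of all genes). The median was -0.03 without HFD-ED 3 and -0.14 without HFD-ED 1, whose list mean of -0.01 lay inside the HFD-CO range. Cd274, the checkpoint ligand PD-L1, was 10.08, 9.88, 9.88 and 10.10 in HFD-CO mice and 9.80, 9.44, 9.10 and 9.58 in HFD-ED mice (difference -0.50, SE 0.123, adjusted p = 0.345). Irf1, the factor that induces many of these genes, was 12.53 to 12.65 against 12.39, 12.22, 11.84 and 12.30 (difference -0.38, SE 0.0948), and Irgm2, an immunity-related GTPase, differed by -0.28 (SE 0.0636). Of 34 type I response genes 25 were lower, with a median of -0.07 that lay between -0.05 and -0.03 without HFD-CO 2, HFD-CO 3, HFD-ED 1, HFD-ED 2 or HFD-ED 4. Its list means were -0.12, -0.0005, 0.07 and -0.10 in HFD-ED mice and -0.09 to 0.08 in HFD-CO mice. Without overlap 2 genes were lower (5.88%, beside 2.61% of all genes) and 1 higher (2.94%, beside 1.93%). The higher gene, named after its values were seen, was Oas3, an oligoadenylate synthetase near the floor (difference 0.07, SE 0.0256). Ifit2, which restrains viral translation, was 7.97 to 8.06 against 7.88, 7.61, 7.77 and 7.71 (difference -0.29, SE 0.0554), Mx2 differed by -0.10 (SE 0.0260), and Parp14 by -0.46 (SE 0.144) with overlap through HFD-ED 1. Irgm2 and Ifit2 passed without HFD-ED 1, at adjusted p of 0.0306 and 0.0479.

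Of 27 immediate early and heat shock genes, 3 were lower without overlap (11.1%, beside 2.61% of all genes). Egr3, a zinc finger factor induced by antigen receptors, was 9.69, 9.67, 9.70 and 9.84 in HFD-CO mice and 9.30, 9.34, 8.91 and 9.37 in HFD-ED mice (difference -0.50, SE 0.102, adjusted p = 0.337). Gadd45b, a stress-induced gene, and Klf6, a Kruppel-like factor, differed by -0.36 (SE 0.0865) and -0.36 (SE 0.110). Klf6 was 10.93 to 11.27 in HFD-CO mice and 10.71, 10.81, 10.84 and 10.88 in HFD-ED mice, with HFD-ED 1 lowest. The list as a whole had 12 higher and 15 lower with a median of -0.02.

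The remaining lower genes with the smallest p came from varied functions. Rab3ip, an exchange factor of membrane traffic, was 7.43, 7.51, 7.51 and 7.54 in HFD-CO mice and 7.34, 7.26, 7.30 and 7.31 in HFD-ED mice (difference -0.19, SE 0.0260, adjusted p = 0.227). Ap3m2, of the AP-3 sorting complex, was 8.40, 8.33, 8.28 and 8.37 against 8.08, 8.10, 8.01 and 8.13 (difference -0.27, SE 0.0379, adjusted p = 0.236). Olfm1, an olfactomedin, was 8.11 to 8.17 against 8.03, 7.95, 7.88 and 7.96 (difference -0.19, SE 0.0293, adjusted p = 0.261). Rab3ip and Olfm1 passed without HFD-ED 1, at 0.0396 and 0.0267. Itm2b, a membrane protein near the top of the scale, differed by -0.20 (SE 0.0347), and Gnpda2, of amino sugar metabolism, by -0.29 (SE 0.0517). For Tns3, a focal adhesion protein, the probe used differed by -0.36 (SE 0.0627), while its 2 other probes with a mean above 7.5 differed by 0.09 and 0.15. For Gnas, the stimulatory G protein subunit, the probe used differed by -0.54 (SE 0.135) and the other probes above 7.5 by -0.08 to 0.0074. The value for each of these genes comes from 1 probe that the others did not share. Of 36 named genes with another probe above 7.5, 23 had one that differed by over 1.5 times or in sign. Besides those given with their genes, the other probes differed by 0.08 for Mrpl37, 0.12 to 0.29 for Psmd1, 0.10 for Psma7 and 0.26 for Txnrd2. They differed by -0.06 for Srebf2, -0.11 for Cyp4f16, -0.36 to -0.31 for Prkcb, -0.68 to -0.35 for Irf1, -0.17 for Ifit2 and -0.18 for Parp14. For Itm2b, H2-Ab1, Psmb8 and Gadd45b they differed by -0.38, -0.35 to -0.15, -0.25 and -0.21.

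Transcripts of the pancreas, which lies next to the spleen, differed between single mice. The 25 pancreatic acinar genes were all lower on HFD-ED, with a median of -1.56 that became -0.31 without HFD-CO 4 and 0.08 without HFD-CO 1 and 4. Clps, the colipase, was 10.03, 7.10, 7.09 and 13.63 in HFD-CO mice and 8.09, 7.18, 7.05 and 7.002 in HFD-ED mice. Ctrl, a chymotrypsin-like protease, and Pla2g1b, the pancreatic phospholipase A2, had the same order, with 13.07 and 10.22 in HFD-CO 4. Cuzd1, a pancreatic zymogen granule gene, counted among the genes without overlap, but HFD-CO 2 and 3 lay at 7.06 and 7.07 and the HFD-ED mice at 7.04 to 7.06. Nupr1, a stress gene strongly expressed in pancreas, was the largest lower difference without overlap and was highest in the same mice, at 9.13, 8.87, 8.76 and 10.15 in HFD-CO mice and 8.63, 8.48, 8.37 and 8.44 in HFD-ED mice (difference -0.75, SE 0.244, adjusted p = 0.454). HFD-CO 2 and 3, at the acinar background, lay above the HFD-ED mice. The part of pancreatic transcripts in the Nupr1 difference was not tested.

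The adipocyte hormone Adipoq was 8.10, 8.31, 8.28 and 8.61 in HFD-CO mice and 7.95, 8.38, 7.59 and 7.57 in HFD-ED mice, so HFD-ED 2 lay among the HFD-CO mice (difference -0.45, SE 0.240, adjusted p = 0.610). Lep, leptin, and Cidec, a lipid droplet protein, were near the floor and differed by -0.16 (SE 0.0513) and -0.12 (SE 0.0502), while Plin1, a defining adipocyte gene, was at the floor in all mice. Of 15 adipocyte genes 1 had a mean above 7.5. Genes of the response to fasting and glucocorticoids set HFD-ED 1 apart as well, with 9 of 11 (81.8%) above every HFD-CO mouse, beside 18.9% of all genes, and a list mean of 0.39 against -0.10, 0.14 and 0.08 in HFD-ED mice 2 to 4. The list's median was 0.10, and -0.01 without HFD-ED 1. The part of these responses in the other values of HFD-ED 1 was not tested.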

How the data were processed

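Spleen RNA of 12 mice was hybridised to Illumina MouseWG-6 v2.0 arrays, 1 per mouse. Per the labels and the methods of the study, the authors read the arrays in GenomeStudio and processed them with lumi 2.18.0, by variance stabilisation and quantile normalisation, and deposited the log2 values used here. The annotation used gave 34885 of 45281 probes 1 gene symbol, 18 several and 10378 none. Depth is not defined for arrays, so the number of mice limits the precision.

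Probes were fitted with limma 3.58.1 in R 4.3.3 over all 12 arrays, with the contrast of HFD-ED minus HFD-CO and Benjamini-Hochberg adjustment over all probes. "Rose" and "fell" are used only at an adjusted p of 0.05. The fit was tested on simulated data. Groups without overlap are those in which every HFD-ED mouse lay on the same side of every HFD-CO mouse. A list's value in a mouse is the mean, over its genes, of the deviation from the HFD-CO mean.

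Genes were named by rule: those past the threshold, the 12 of smallest p and the 8 of largest difference in each direction among genes without overlap, the 3 of smallest p in each list, 52 genes fixed one by one (47 with a probe of 1 symbol, the others not reported here) and cell type markers. Other genes are said to be named after their values were seen. The comparison, the genes and the lists were chosen with earlier results of these data known. Labels do not say that replicate numbers pair mice, and same-numbered mice correlated above 0.1 in 1 of 4 pairs, so mice were not paired. Promoter sequences came from RefSeq on GRCm38.p6.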

Additional observations from a re-analysis of the deposited data

Results flagged for a closer look

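In 398 groups of 4 mice, a gene or list in 1 diet, 30 had 1 mouse far from the other 3 by Dixon's criterion at 95%, which chance alone meets for about 1 group in 20, and no cause was tested for any of them. The values in parentheses are the range of the other 3 mice.

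HFD-ED 3 stood apart in genes of several functions. These were Egr3 at 8.91 (9.30 to 9.37), Hmgb2 at 10.82 (9.62 to 9.67), Hdc at 9.90 (8.37 to 8.47) and Cyp4f16 at 7.95 (8.27 to 8.33). It was also lowest among HFD-ED mice for chemokines and antigen processing, with Ccl19 at 10.23 (10.89 to 11.01), Ccl5 at 11.01 (11.51 to 11.56) and Tapbpl at 7.93 (8.32 to 8.37). Its list means were -0.16 for natural killer cells, 0.21 for mast cells and basophils and -0.032 for eicosanoid synthesis.

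HFD-ED 1 stood apart in pancreatic genes, with Clps at 8.09 (7.002 to 7.18) and Ctrl at 8.02 (7.34 to 7.37), and in Sigirr at 7.31 (7.37 to 7.38) and Irgm2 at 9.97 (9.69 to 9.71). HFD-ED 2 stood apart in Hjurp at 10.41 (10.22 to 10.23), Pparg at 8.33 (7.87 to 7.95) and Mx2 at 7.21 (7.27 to 7.27), and in its list means for cholesterol synthesis (-0.072) and smooth muscle (-0.12).

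HFD-CO 4 stood apart in Pla2g1b at 10.22 (7.02 to 7.40), Cuzd1 at 9.35 (7.06 to 7.27), Psma7 at 10.69 (10.85 to 10.88) and Rasgrp1 at 11.52 (11.05 to 11.08), and in its respiratory chain mean of -0.064. HFD-CO 3 stood apart in Stmn1 at 7.89 (7.55 to 7.57) and Ffar2 at 9.90 (10.06 to 10.07), and in its means for cholesterol synthesis (-0.025) and MHC class II (-0.033). HFD-CO 1 stood apart in Zfp398 at 7.46 (7.51 to 7.52) and in its Toll-like receptor mean of 0.044.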

How the results depend on the processing

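Under 22 alternatives the count of 1 probe past an adjusted p of 0.05 in limma became 0 with the replicate block, with the 8 arrays of the compared diets alone, with a trend of variance with intensity and without probes of mean at or under 7.5, and ranged from 0 to 46 with 1 mouse left out. The 46 came without HFD-ED 1, and no other omission gave more than 1. At an unadjusted p under 0.05 there were 4505 probes with the replicate block, beside 4211 without it, 1912 without the dim probes and 2132 with 1 probe per gene. Genes without overlap numbered 865, 477 without the dim probes, and 1305 to 2486 with 1 mouse of the compared diets left out, where fewer mice make overlap rarer. Same-numbered mice correlated at -0.04 to 0.37 in their deviations, 1 of 4 pairs above 0.1, and 2 of 4 HFD-ED mice correlated best with their own number, so the numbers were not taken to pair mice.

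Of 150 named genes, 139 kept their direction in all 22 alternatives. With the probe of largest variance the difference was 0.090 for Tns3, -0.017 for Srebf1 and -0.061 for Srebf2, and with array weights it was -0.0027 for Cpt1a. With 1 mouse left out the difference ranged from -0.011 to 0.015 for Cpt1a, -0.016 to 0.011 for Cyp4f14, -0.048 to 0.030 for Elovl6, -0.0021 to 0.030 for Fads2, -0.25 to 0.055 for Pdk4, -0.019 to 0.050 for Ppard, -0.12 to 0.084 for Pparg, -0.026 to 0.0073 for Ptgs2 and -0.018 to 0.087 for Srebf2. The cause was not tested. Without probes of mean at or under 7.5, list medians were larger in size, 0.61 for platelets, 0.98 for secondary granules and -0.21 for natural killer cells. The omission of HFD-CO 1 and 4, and the attention given to the results without HFD-ED 1, were chosen after seeing the data.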
